A study of Mus musculus with 12 samples.

Results

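The genes of cholesterol synthesis and of its control by the sterol regulatory element binding proteins (SREBPs) were followed in lens cells (LCs) of the mouse after cataract surgery. The group held 28 genes, chosen by symbol from their known roles, and while their selection rule used no measured value, it was written with earlier results of these data known. All 28 were found among the 45859 genes of each table, and each passed the filter of a mean of 0.5 FPKM (sequenced fragments scaled by transcript length and by library size) in every comparison. There were 8 enzymes of the mevalonate and isoprenoid steps, 11 of the squalene and sterol steps, 5 genes of the SREBP factors and their sterol-sensing partners, and 4 of sterol transport and its receptor.

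The surgery took out the lens fiber cells and left the capsule with its attached LCs, which were collected at 0 h or 24 h post cataract surgery (PCS) from adult mice of 2 months. WT lenses were from strain C57BL/6. The β8ITG-cKO lenses lacked the β8 integrin gene Itgb8, through a floxed exon 4 and the MLR10-Cre transgene, active in every LC since the vesicle stage of the lens, and their strain is given as mixed C57BL/6 and 129S1/Sv, so genotype and strain background cannot be told apart. Both genotypes had the same surgery, and each of the 4 groups held 3 libraries of 5 pooled capsules. The libraries are called biological replicates, nothing says how the mice were shared among pools, and p-values measure the spread between these libraries.

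Cells make cholesterol from acetyl-CoA through mevalonate, isoprenoids, squalene and lanosterol, and the genes of these steps are known targets of SREBP-2. When membranes hold little sterol, the escort protein SCAP carries SREBPs from the endoplasmic reticulum to the Golgi, where they are cut and freed for the nucleus. When sterol is plentiful, INSIG proteins hold SCAP back. The lens is known for fiber cell membranes that are unusually rich in cholesterol, and inherited defects of several of these enzymes are known to cause cataract.

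The targeted gene did not separate the genotypes in these values. Itgb8 was at 7.26, 10.78 and 8.42 FPKM in WT 0 h, 9.08, 8.38 and 9.58 in WT 24 h, 6.83, 4.58 and 7.31 in β8ITG-cKO 0 h, and 9.28, 11.83 and 10.28 in β8ITG-cKO 24 h. The difference between the genotypes did not pass limma's test (adjusted p = 0.209 at 0 h and 0.486 at 24 h). Over time Itgb8 rose in β8ITG-cKO (mean 6.24 to 10.5 FPKM, log2 change 0.68, adjusted p = 0.0132) and did not pass in WT (adjusted p = 0.873). The test of the difference between these changes did not pass (adjusted p = 0.131). Since FPKM cover all exons and the deletion takes out exon 4, they do not check the labels.

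Markers of other cells moved with the same comparisons. Lens epithelial markers (5 genes, among them Foxe3) were present in every group and lower at 24 h than at 0 h, at a summed 222 to 260 against 283 to 295 FPKM in WT (3 of 5 genes lower by the test, 1 higher) and 185 to 207 against 361 to 448 in β8ITG-cKO (4 of 5 lower). The summed level of 8 lens fiber markers was 28200 to 41700 FPKM in the WT libraries at 0 h against 10700 to 14500 at 24 h, and 32200 to 39900 against 6600 to 8910 in β8ITG-cKO. The sum of 10 leukocyte markers was 8.49 to 16.2 FPKM in the 6 libraries at 0 h, where the neutrophil genes S100a8 and S100a9 were listed at 0 in all WT libraries, and 55.3 to 121 at 24 h. Photoreceptor markers (12 genes) summed to 72.9 to 144 FPKM in WT 24 h and 826 to 987 in β8ITG-cKO 24 h, with 132 to 1030 in WT 0 h and 167 to 301 in β8ITG-cKO 0 h. Over the 12 libraries, Müller glia markers (4 genes) summed to 74.6 to 310 FPKM, corneal stromal markers (4) to 0.869 to 8.90 and pigmented iris and ciliary markers (5) to 11.5 to 83.7. Corneal epithelial markers (4) summed to 208 to 269 FPKM in WT 0 h, 152 to 401 in WT 24 h, 536 to 911 in β8ITG-cKO 0 h and 139 to 190 in β8ITG-cKO 24 h. Most of each sum was Aldh3a1, at 207.5 to 264.19 FPKM in WT 0 h and 535.24 to 910.98 in β8ITG-cKO 0 h. Krt12, Krt5 and Krt14 each had means of 3.51 FPKM or less in every group. None of these lists had all its genes at 0, and their part in the results on the 28 genes was not tested. In pooled capsules fewer cells of a type and less RNA per cell cannot be told apart.

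At 0 h the 28 genes spanned a mean of 1.47 FPKM (Tm7sf2) to 43.0 (Srebf1) in WT and 1.16 (Abcg1) to 52.3 (Srebf1) in β8ITG-cKO. At 24 h the highest was Fdps, at 45.7 and 38.2 FPKM. No member was listed at 0 in any library, and the lowest single value was 0.41 FPKM, of Abcg1. Since FPKM are per length, the levels of different genes can be set side by side.

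Promoters are shown for 4 genes whose levels moved in both genotypes, since SREBPs are known to act there with the factor NF-Y. RefSeq promoters (250 bases before to 50 bases after the start, build GRCm38.p6) matched 23 of the 28 genes by symbol, with 31 start sites. They were searched on both strands for a sterol regulatory element (SRE, TCACNCCAC) and for the NF-Y box CCAAT, and no match of either motif overlapped the other in the windows shown. Capitals mark the matches, and ATTGG is the box read from the other strand. Among the searched genes past the threshold in both genotypes, Hmgcs1 was the only one that held an SRE. Fdps, Fdft1 and Sqle also passed in both but had no matched promoter, so they were not searched. Stard4 and Abcg1 had none either. Msmo1, Ebp and Insig1 were added after their values were seen. The windows are chr13:119690101-119690400 (plus strand, Hmgcs1), chr8:64733529-64733828 (minus, Msmo1), chrX:8193463-8193762 (minus, Ebp) and chr5:28071162-28071461 (plus, Insig1).
Hmgcs1: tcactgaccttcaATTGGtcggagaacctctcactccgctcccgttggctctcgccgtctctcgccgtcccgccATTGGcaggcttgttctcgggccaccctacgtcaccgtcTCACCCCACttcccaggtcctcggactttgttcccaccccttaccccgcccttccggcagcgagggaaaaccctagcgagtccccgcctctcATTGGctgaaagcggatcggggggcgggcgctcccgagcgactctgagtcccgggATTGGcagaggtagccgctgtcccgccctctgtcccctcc
Msmo1: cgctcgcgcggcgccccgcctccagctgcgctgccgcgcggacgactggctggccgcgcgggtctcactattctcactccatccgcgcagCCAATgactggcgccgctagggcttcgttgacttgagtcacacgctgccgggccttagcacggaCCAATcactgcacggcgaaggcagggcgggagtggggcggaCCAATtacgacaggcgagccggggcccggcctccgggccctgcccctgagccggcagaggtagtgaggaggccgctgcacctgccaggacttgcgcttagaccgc
Ebp: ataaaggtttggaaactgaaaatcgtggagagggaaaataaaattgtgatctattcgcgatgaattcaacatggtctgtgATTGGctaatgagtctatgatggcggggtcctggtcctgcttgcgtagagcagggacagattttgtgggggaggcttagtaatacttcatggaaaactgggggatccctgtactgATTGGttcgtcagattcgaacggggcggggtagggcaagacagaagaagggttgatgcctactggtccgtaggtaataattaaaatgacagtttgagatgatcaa
Insig1: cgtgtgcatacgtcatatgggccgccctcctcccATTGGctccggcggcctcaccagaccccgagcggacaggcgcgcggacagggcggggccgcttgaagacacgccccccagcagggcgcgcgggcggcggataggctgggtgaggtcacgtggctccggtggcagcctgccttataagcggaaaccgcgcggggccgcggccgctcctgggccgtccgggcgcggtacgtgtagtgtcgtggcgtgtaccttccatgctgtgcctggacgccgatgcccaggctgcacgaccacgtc

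The SRE of Hmgcs1 began at base -137 from the start. It was the 1 match among the 23 genes, while 408 of 32851 mouse promoters in the table, 1.24%, held these letters. CCAAT was in the window of 19 of the 23 genes and in 20 of the 31 member promoters, against 37.4% of all promoters. Msmo1 held 3 boxes at bases -160, -96 and -55, Ebp held 2, Hmgcs1 held 4, and Insig1 held 1 at base -216. A match describes the letters and does not show that a factor binds there.

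In WT LCs the enzymes that make cholesterol rose between 0 h and 24 h PCS. Of the 28 genes 13 rose and 3 fell by limma's test on log2(FPKM + 1), at a Benjamini-Hochberg adjusted p of at most 0.05 over all genes, against 20.9% and 8.81% of the 15146 genes tested. Among the 19 enzymes 12 rose (63.2%), 0 fell and 7 did not pass, and the median change was 0.68, against 0.16 over all genes tested. The summed level of the 19 enzymes was 117, 123 and 115 FPKM at 0 h and 287, 248 and 199 at 24 h. All 3 libraries at 24 h lay above all 3 at 0 h, and replicate 3 was the lowest at 24 h. In such a sum the genes of highest FPKM weigh most, among them Fdps (mean 18.2 to 45.7) and Msmo1 (11.5 to 39.5).

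Ebp and Msmo1, of the sterol steps, had the largest rises among the 28 genes. Ebp, the isomerase that moves a double bond in the sterol ring, was at 3.79, 3.71 and 3.11 FPKM at 0 h and 22.38, 12.63 and 16.66 at 24 h. Its groups did not overlap, and the mean rose 4.87-fold (log2 change 1.97, SE 0.21, adjusted p = 0.000841, limma). Msmo1, the oxidase that starts removal of the sterol 4-methyl groups, was at 10.81, 10.68 and 13.13 FPKM at 0 h and 48.45, 40.24 and 29.73 at 24 h. This was 3.42-fold (log2 change 1.67, SE 0.20, adjusted p = 0.0013), with the lowest library at 24 h above the highest at 0 h. Sqle, the epoxidase of squalene and a rate-limiting step, was at 6.36, 6.64 and 7.06 FPKM at 0 h and 18.66, 17.76 and 16.42 at 24 h. It varied little within either group and rose 2.63-fold (log2 change 1.27, SE 0.13, adjusted p = 0.000736). Nsdhl, which acts after Msmo1 in the same removal of methyl groups, was at 3.0, 3.70 and 3.22 FPKM and then 7.43, 8.77 and 6.82. It rose 2.32-fold with no overlap (log2 change 1.01, SE 0.16, adjusted p = 0.00352).

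Dhcr7, Sc5d and Fdft1 had smaller changes. Dhcr7, the reductase that ends a branch of the route, had a mean of 3.77 ± 0.572 FPKM at 0 h and 7.5 ± 1.73 at 24 h (SD, n = 3, adjusted p = 0.018 by limma). Sc5d, a desaturase just before it, went from 4.85 ± 0.389 to 8.44 ± 1.27 FPKM (adjusted p = 0.0145, limma), and Fdft1, the squalene synthase, from 9.91 ± 0.679 to 14.4 ± 1.58 (adjusted p = 0.033, limma). Fdft1 shares 18.3% of its exonic bases with Ctsb on the other strand, and the strand setting of the authors' counting is not given in the sources used here, so its level is uncertain. Antisense or other opposite-strand models also overlap Hmgcs1 (12.1%), Scap (13.2%) and Idi1 (9.22%). Lss, Cyp51, Tm7sf2 and Hsd17b7 did not pass (adjusted p = 0.483, 0.19, 0.521 and 0.185). Cyp51, the lanosterol demethylase, was at 7.11, 7.07 and 7.15 FPKM at 0 h and 15.86, 9.54 and 7.10 at 24 h, so that its groups overlapped through replicate 3.

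In the mevalonate and isoprenoid steps 5 of 8 genes rose in WT. Fdps, which makes farnesyl diphosphate, was at 17.62, 21.05 and 16.08 FPKM at 0 h and 59.05, 47.23 and 30.70 at 24 h. All of the later values were higher, with a 2.50-fold mean (log2 change 1.24, SE 0.24, adjusted p = 0.00819, limma). A predicted gene, Gm43738, shares 26.7% of the exonic bases of Fdps on the same strand, and reads of the 2 genes may have been split between them. Acat2, the cytosolic thiolase that joins acetyl-CoA units, was at 1.59, 1.73 and 1.33 FPKM and then 4.77, 5.87 and 3.87. It rose 3.11-fold in FPKM, a log2 change of 1.18 with 1 FPKM added (SE 0.18, adjusted p = 0.00335), since the pseudocount shrinks changes of low genes. Idi1, the isomerase of isopentenyl diphosphate, went from 6.11, 4.96 and 5.11 FPKM to 14.36, 13.17 and 9.32. That was 2.28-fold without overlap (log2 change 1.04, SE 0.19, adjusted p = 0.00609).

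Hmgcs1, the synthase that makes HMG-CoA, was at 15.21, 15.03 and 15.35 FPKM at 0 h and 23.02, 26.18 and 22.41 at 24 h. The 0 h libraries were nearly level, and the rise was 1.57-fold (log2 change 0.62, SE 0.13, adjusted p = 0.0105). Mvk, the mevalonate kinase, was at 3.29 to 4.97 FPKM at 0 h and 5.70 to 8.63 at 24 h (adjusted p = 0.0256, limma). Pmvk and Mvd, the next 2 kinase and decarboxylase steps, did not pass (adjusted p = 0.0761 and 0.593). Ggps1, which leads to geranylgeranyl groups and away from sterols, was at 6.27 to 7.44 FPKM at 0 h and 4.01 to 5.51 at 24 h (adjusted p = 0.112). Its 24 h values lay below those at 0 h, as for no other enzyme in WT. In β8ITG-cKO that held for Hsd17b7, at 4.19 to 4.67 FPKM at 0 h and 3.25 to 4.14 at 24 h (adjusted p = 0.194).

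**Figure D1:**
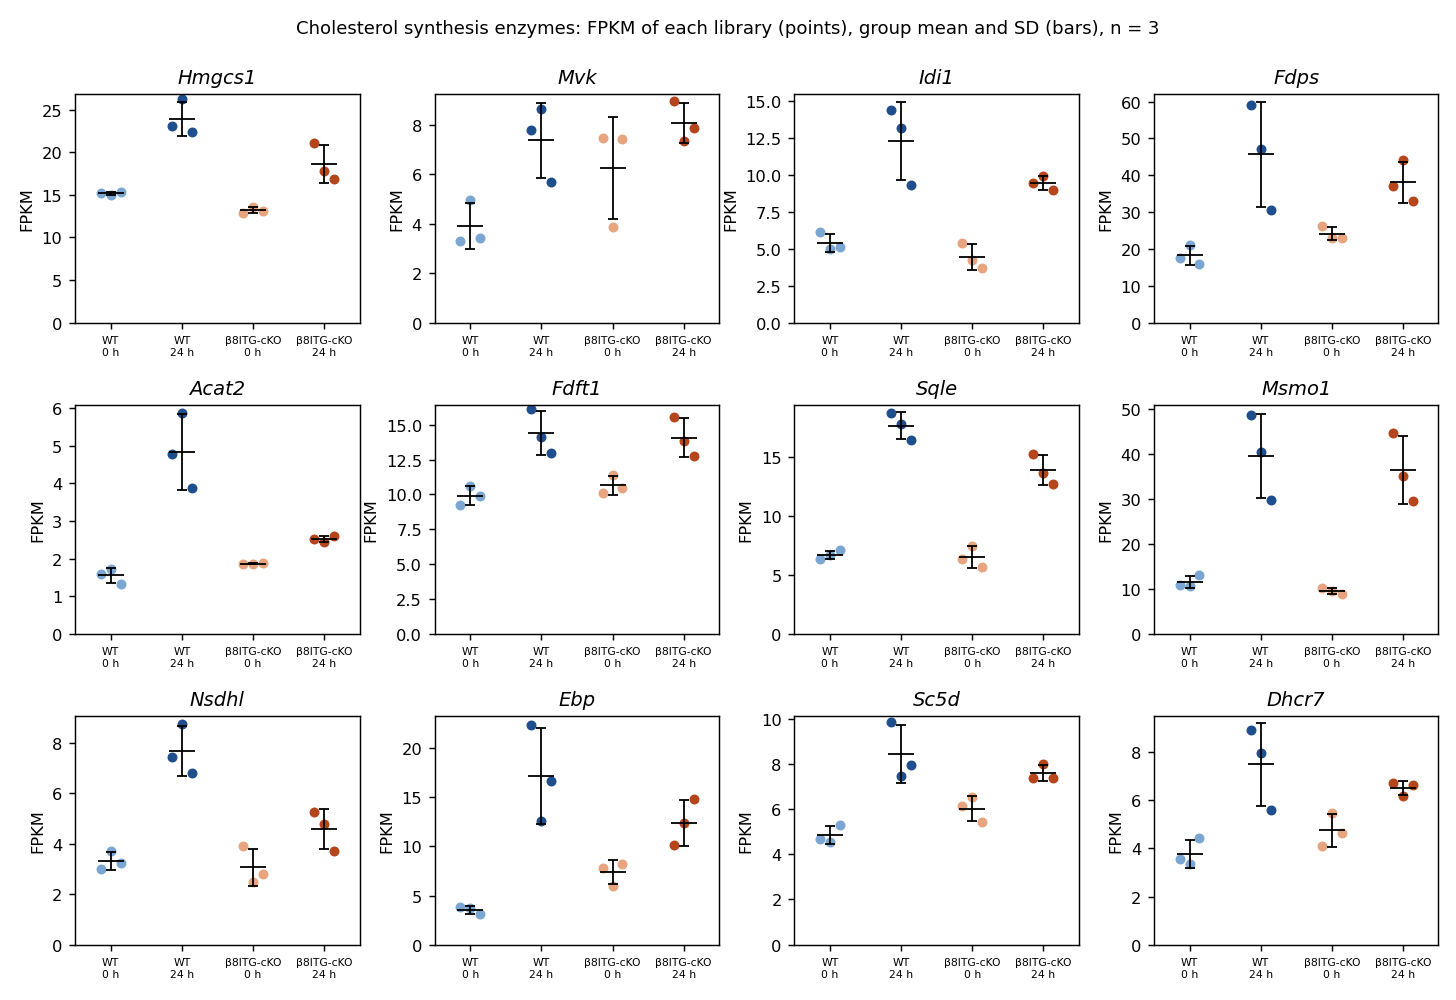
FPKM of the 12 synthesis enzymes that rose in WT, with 1 point per library in WT and β8ITG-cKO at 0 h and 24 h PCS; horizontal bars are group means and vertical bars SDs (n = 3), and each y axis starts at 0. Msmo1 reached 29.54 to 48.45 FPKM in the 6 libraries at 24 h from 8.81 to 13.13 at 0 h, while Acat2 reached 3.87 to 5.87 in WT and 2.45 to 2.60 in β8ITG-cKO.

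The count in WT depended on some libraries. Without WT 0 h replicate 1 it was 9 genes, 7 higher and 2 lower, and without WT 24 h replicate 3 it was 18. Idi1, Fdps, Acat2, Sqle, Msmo1, Nsdhl, Ebp, Srebf1 and Insig1 passed in each of the 6 fits that left out 1 library, whereas Fdft1 passed in 1, Mvk, Dhcr7 and Abca1 in 2, Scap in 4 and Hmgcs1 and Sc5d in 5. All genes together had shifted up by 0.16, and when libraries were rescaled to the same median, which moved that median to -0.05, 9 genes rose and 5 fell, against 14.4% and 16.0% of genes. The 9 were all enzymes (Hmgcs1, Mvk, Idi1, Fdps, Acat2, Sqle, Msmo1, Nsdhl and Ebp), and the 5 were Ggps1 (log2 change -0.61), Srebf1, Insig1, Abca1 and Abcg1. The study's own criteria on size (over 2-fold, over 2 FPKM apart and at least 2 FPKM in 1 group) left 7 genes higher and 2 lower, against 10.3% and 3.92%.

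The SREBP genes and their partners did not move together. Srebf1, which encodes SREBP-1, a factor known mainly for fatty acid synthesis, was at 43.40, 40.25 and 45.48 FPKM in WT 0 h and 21.32, 16.45 and 17.17 in WT 24 h. All later values were lower, and it fell 2.35-fold (log2 change -1.20, SE 0.15, adjusted p = 0.00148, limma). Insig1, which holds SCAP back in the endoplasmic reticulum and is itself a known SREBP target, was at 32.48, 29.74 and 30.18 FPKM and then 15.34, 14.55 and 15.57. It fell 2.03-fold (log2 change -0.98, SE 0.12, adjusted p = 0.00165), opposite in sign to the enzymes that rose. Scap was at 8.88, 9.72 and 8.19 FPKM at 0 h and 12.77, 13.05 and 15.72 at 24 h. It rose 1.55-fold with no overlap (adjusted p = 0.0213, limma), and lost its call on rescaling (adjusted p = 0.123).

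Srebf2, which encodes SREBP-2, was at 19.10, 18.37 and 18.16 FPKM in WT 0 h and 28.25, 25.70 and 21.73 in WT 24 h. The groups did not overlap, but the difference did not pass (log2 0.42, adjusted p = 0.0588, limma). Insig2, the second INSIG gene, was at 4.44 to 6.16 FPKM at 0 h and 6.90 to 7.25 at 24 h (adjusted p = 0.161). The ratio of Srebf1 to Srebf2 FPKM was 2.19 to 2.50 in the WT libraries at 0 h and 0.64 to 0.79 at 24 h. In β8ITG-cKO it was 2.45 to 2.69 at 0 h and 0.694 to 0.871 at 24 h, so Srebf1 was the higher gene in all 6 libraries at 0 h and the lower one in all 6 at 24 h.

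Srebf1 and Insig1 also fell in β8ITG-cKO. Srebf1 was at 50.25, 53.53 and 53.19 FPKM at 0 h and 18.87, 19.06 and 25.32 at 24 h, with no overlap (2.48-fold lower, log2 change -1.28, SE 0.13, adjusted p = 0.000178). Insig1 was at 26.75, 28.04 and 27.84 FPKM and then 14.66, 12.16 and 12.68, again with no overlap (2.09-fold lower, log2 change -1.01, SE 0.10, adjusted p = 0.00017). The difference between the genotypes in these changes was -0.09 for Srebf1 (95% interval -0.50 to 0.33) and -0.04 for Insig1 (-0.34 to 0.26), and neither passed the test of the interaction of genotype and time. Srebf2 was at 18.68, 21.82 and 20.26 FPKM at 0 h and 26.82, 27.45 and 29.05 at 24 h in β8ITG-cKO and rose 1.37-fold (log2 change 0.44, SE 0.09, adjusted p = 0.00668), a call lost on rescaling (adjusted p = 0.248). Lens fiber markers were lower at 24 h in the same libraries, by the sums given above, and their part in the lower Srebf1 and Insig1 was not tested.

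**Figure D2:**
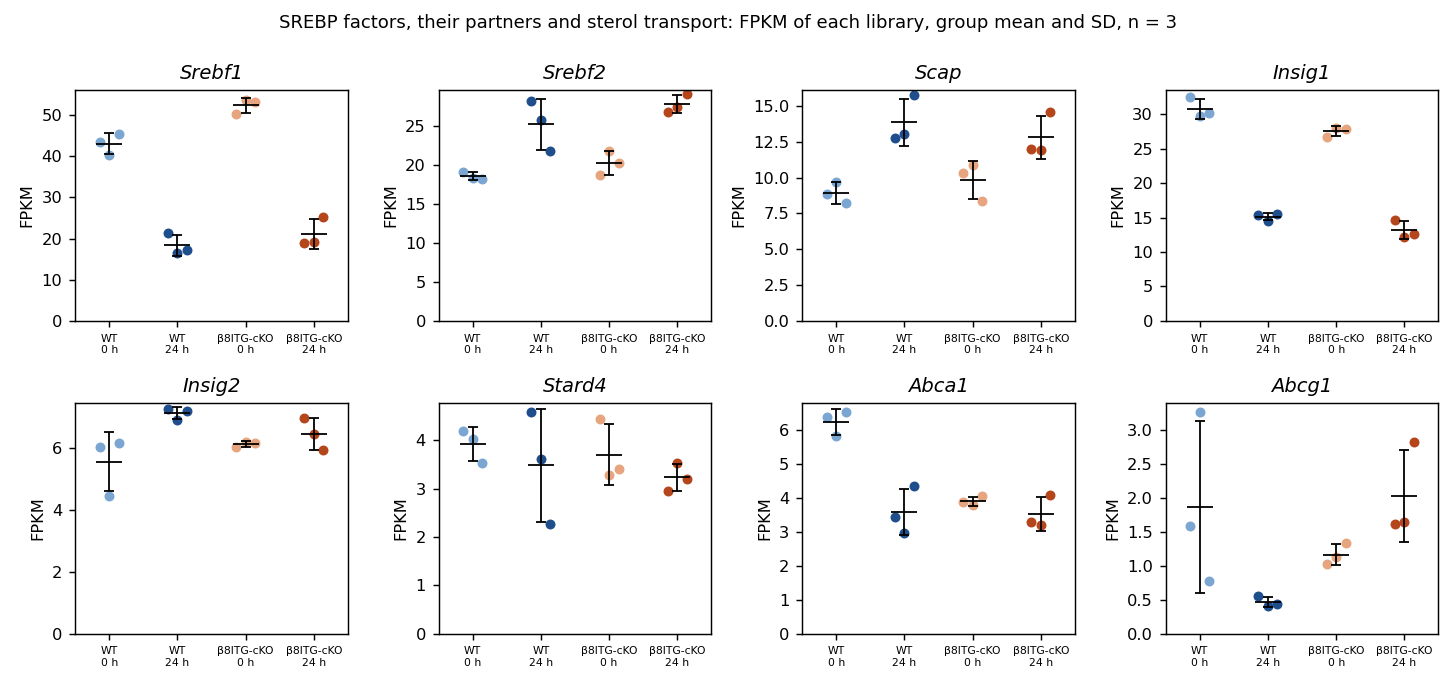
FPKM of the SREBP genes, their partners and sterol transport genes, with 1 point per library in the 4 groups; horizontal bars are means and vertical bars SDs (n = 3), and each y axis starts at 0. Srebf1 was at 40.25 to 53.53 FPKM in the 6 libraries at 0 h and 16.45 to 25.32 at 24 h, and Insig1 at 26.75 to 32.48 and 12.16 to 15.57.

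In β8ITG-cKO LCs 9 of the 28 genes rose and 2 fell between 0 h and 24 h, against 35.4% and 10.7% of the 15237 genes tested. The share of members that rose, 32.1%, was near that background, so the count is not a result about these genes as a group. Among the 19 enzymes 8 rose (42.1%, near the 35.4% of all genes) and 0 fell, with a median change of 0.37 against 0.23 over all genes. On rescaling to the same median, the median change of the enzymes was 0.1. The summed level of the 19 enzymes was 138, 127 and 130 FPKM at 0 h and 224, 213 and 198 at 24 h, again without overlap. The 8 enzymes were Hmgcs1, Idi1, Fdps, Fdft1, Sqle, Msmo1, Ebp and Dhcr7, which had also risen in WT.

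Msmo1 had the largest change of the group in β8ITG-cKO. It was at 10.15, 9.53 and 8.81 FPKM at 0 h and 44.49, 34.92 and 29.54 at 24 h, and the groups did not overlap (3.83-fold, log2 change 1.81, SE 0.15, adjusted p = 8.36e-05). Sqle was at 6.35, 7.47 and 5.61 FPKM and then 15.23, 13.60 and 12.69 (2.14-fold, log2 change 0.99, SE 0.12, adjusted p = 0.000572). Idi1 was at 5.39, 4.27 and 3.68 FPKM and then 9.46, 9.94 and 8.99 (2.13-fold, log2 change 0.95, SE 0.13, adjusted p = 0.000962). Neither gene had a 24 h value as low as its highest 0 h value. Fdps had a mean of 24.2 ± 1.80 FPKM at 0 h and 38.2 ± 5.55 at 24 h (adjusted p = 0.00433, limma), and Hmgcs1 13.2 ± 0.384 and 18.6 ± 2.21 (adjusted p = 0.00926, limma).

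Rescaling to the same median left fewer genes. It moved the median of all genes from 0.23 to 0, and 4 members then rose (Idi1, Sqle, Msmo1 and Ebp) and 5 fell (Srebf1, Insig1, Hsd17b7, Stard4 and Abca1), against 21.3% and 19.9% of genes. Hmgcs1, Fdps, Fdft1 and Dhcr7 lost their calls, at adjusted p of 0.29, 0.07, 0.594 and 0.43. The study's criteria on size left 3 higher (Idi1, Sqle and Msmo1) and 2 lower, against 11.3% and 3.77%. Among genes that had risen in WT, Nsdhl, Acat2, Sc5d, Scap and Mvk did not pass in β8ITG-cKO (adjusted p = 0.0551, 0.0553, 0.0511, 0.0569 and 0.21).

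**Figure D3:**
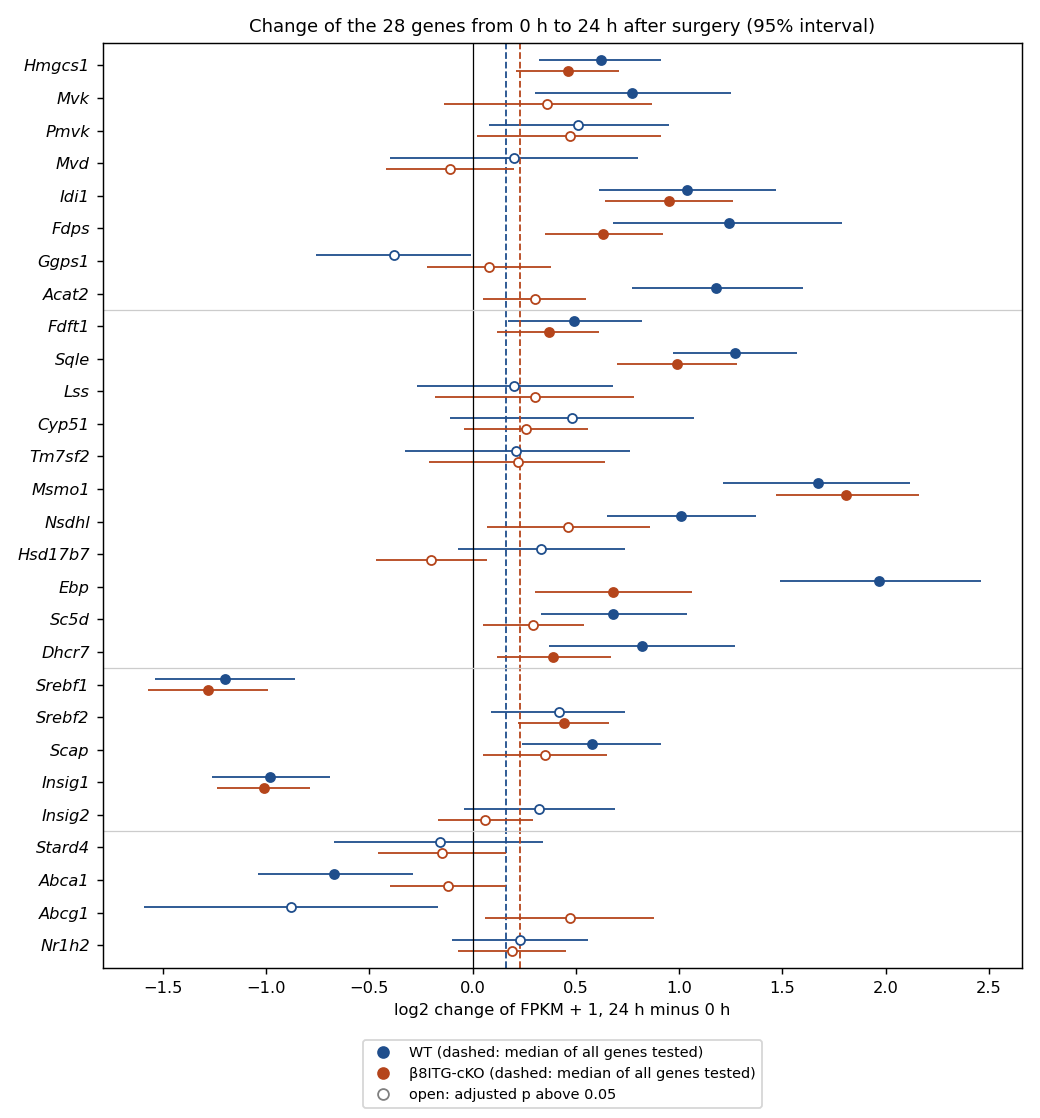
log2 change of FPKM + 1 from 0 h to 24 h PCS for the 28 genes in WT (blue) and β8ITG-cKO (orange) with 95% intervals; open circles did not pass an adjusted p of 0.05, dashed lines are the medians of all genes tested (0.16 and 0.23), and grey lines part mevalonate steps, sterol steps, SREBP partners and transport genes. Msmo1, Srebf1 and Insig1 lay close together in both genotypes, while Ebp was at 1.97 in WT and 0.68 in β8ITG-cKO.

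Whether the genotypes differed in their change was tested as the interaction in 1 fit over all 12 libraries. It passed for 2 enzymes, Acat2 and Ebp, both with a smaller rise in β8ITG-cKO, and for the sterol exporter Abcg1, with the opposite sign. These 3 of 28 genes, 1 higher and 2 lower, compare with 6.83% higher and 2.56% lower among the 15262 genes tested. Their share, 10.7%, was near the 9.39% of all genes, so the count is not a result about the group. The median over the 19 enzymes was -0.28 against 0 for all genes. WT 24 h and 0 h enter both this test and the tests above, so these are not separate evidence. The other 17 enzymes did not pass, and for Msmo1 the interval of the difference was -0.42 to 0.71, for Sqle -0.65 to 0.08 and for Idi1 -0.59 to 0.42.

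Acat2 was at 1.85, 1.86 and 1.89 FPKM in β8ITG-cKO 0 h and 2.51, 2.45 and 2.60 in β8ITG-cKO 24 h. Each of these 24 h values lay below the lowest WT value at 24 h, 3.87 FPKM. The 0 h values lay above the WT 0 h values of 1.33 to 1.73 FPKM, a difference that did not pass (log2 0.17, adjusted p = 0.468, limma). The changes differed by -0.89 on the log2 scale (SE 0.19, adjusted p = 0.0173, limma), and this passed in all 12 fits that left out 1 library. At 24 h Acat2 was 1.92-fold lower in β8ITG-cKO than in WT (2.52 ± 0.075 against 4.84 ± 0.997 FPKM, log2 difference -0.72, SE 0.16, adjusted p = 0.0441), a call that held in 1 of the 6 fits without a library.

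Ebp differed at the start. It was at 7.85, 5.97 and 8.25 FPKM in β8ITG-cKO 0 h, all above the 3.11 to 3.79 of WT 0 h, and 2.08-fold higher in the mean (log2 difference 0.87, SE 0.15, adjusted p = 0.018, limma). In β8ITG-cKO 24 h it was at 10.12, 12.37 and 14.79 FPKM, which overlapped the WT values of 12.63 to 22.38 (adjusted p = 0.351). The changes over time differed by -1.29 (SE 0.28, adjusted p = 0.0166), and this too passed in all 12 fits without a library, while the difference at 0 h passed in 3 of 6. Of the corneal epithelial markers, Aldh3a1 was also higher in β8ITG-cKO than in WT at 0 h (mean 734 against 240 FPKM). Krt12 (0.103 against 0.488 FPKM) and Krt5 (0.277 against 1.39) were lower, and Krt14 (0.23 against 0.0312) was higher. Lens epithelial markers summed to 361 to 448 FPKM in β8ITG-cKO 0 h and 283 to 295 in WT 0 h. Of these 5 genes 2 were higher and 0 lower by limma's test. The part of all these markers in the Ebp difference was not tested.

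Only 2 of the 28 genes differed between the genotypes at each time by limma's test, with 1 higher and 1 lower each time. Of all genes tested, 4.18% were higher and 2.75% lower at 0 h (6.94% in all), and 5.64% were higher and 0.644% lower at 24 h (6.29% in all). The share of members, 7.14%, was near these, so neither count is a result about the group. By an unadjusted p under 0.05 there were 4 at 0 h and 7 at 24 h, against 24.0% and 20.4% of genes. At 0 h the other gene was Abca1, the exporter of cholesterol to lipid-poor apolipoproteins and a known target of the liver X receptors. It was at 6.38, 5.82 and 6.54 FPKM in WT 0 h and 3.87, 3.79 and 4.05 in β8ITG-cKO 0 h, with no overlap (1.60-fold lower, log2 difference -0.56, SE 0.11, adjusted p = 0.027). In WT 24 h it was at 3.45, 2.98 and 4.34 FPKM and so fell over time (log2 change -0.67, SE 0.16, adjusted p = 0.0188), while in β8ITG-cKO 24 h it was at 3.29, 3.19 and 4.10 (adjusted p = 0.442 over time). The test of the difference between these changes did not pass (adjusted p = 0.0921). The call at 0 h held in 1 of 6 fits without a library, and red blood cell markers (5 genes) summed to 68.0 to 153 FPKM in WT 0 h and 6.52 to 15.8 in β8ITG-cKO 0 h, a difference whose part was not tested.

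At 24 h Abcg1, which exports sterol to lipoprotein particles, was the other gene. It was at 0.55, 0.41 and 0.43 FPKM in WT 24 h and 1.62, 1.65 and 2.82 in β8ITG-cKO 24 h, 4.39-fold higher without overlap (log2 difference 1.03, SE 0.19, adjusted p = 0.0206). At 0 h it was at 1.58, 3.26 and 0.77 FPKM in WT and 1.03, 1.13 and 1.33 in β8ITG-cKO, so WT replicate 2 stood above the rest. The changes over time differed by 1.35 (SE 0.38, adjusted p = 0.0449), which held in 1 of 12 fits without a library. Photoreceptor markers were also higher in β8ITG-cKO than in WT at 24 h. Their sums were 326, 1030 and 132 FPKM in WT 0 h, 72.9, 134 and 144 in WT 24 h, 301, 167 and 232 in β8ITG-cKO 0 h, and 931, 826 and 987 in β8ITG-cKO 24 h, with all 12 genes higher in β8ITG-cKO at 24 h, and their part in the Abcg1 difference was not tested.

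**Figure D4:**
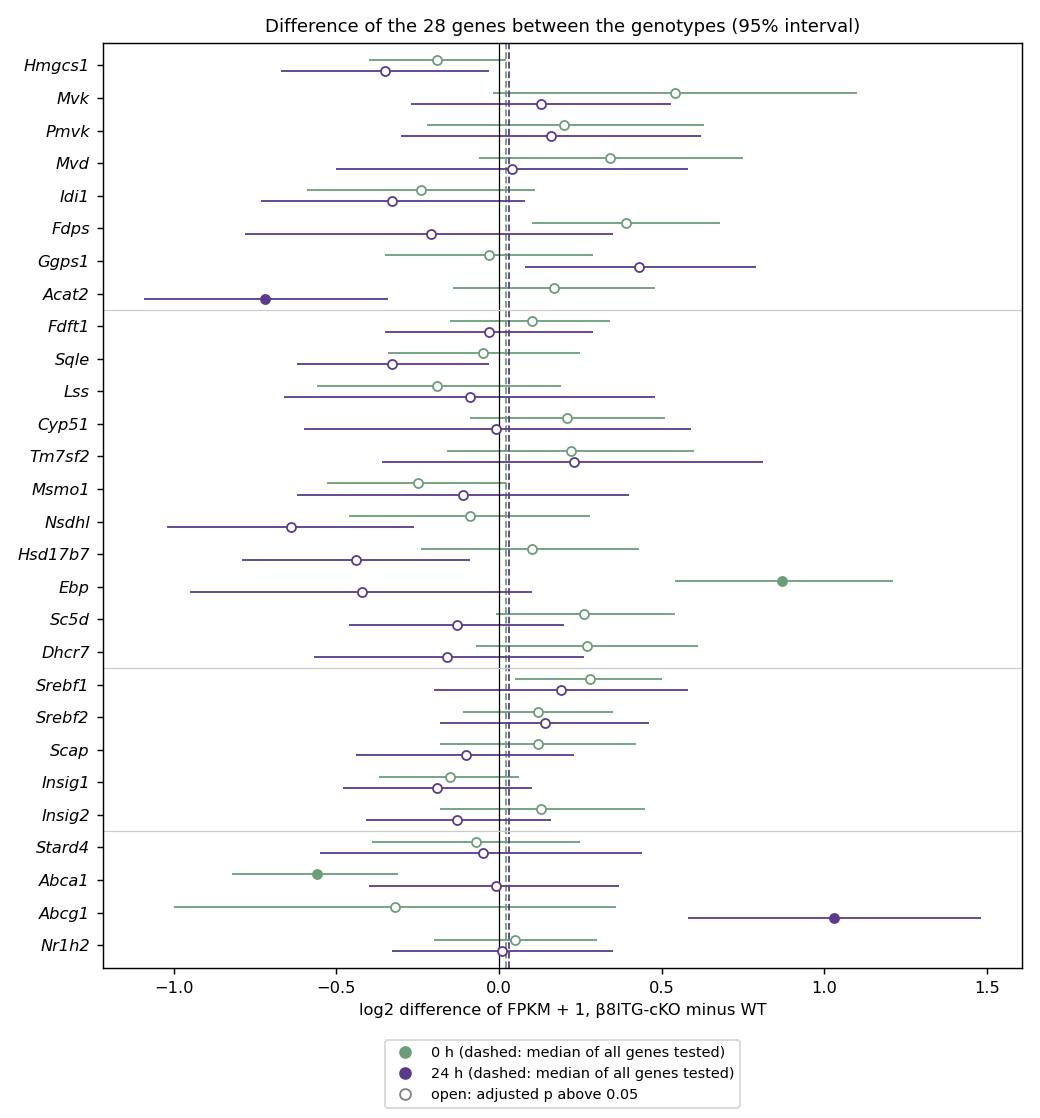
log2 difference of FPKM + 1 between β8ITG-cKO and WT for the 28 genes at 0 h (green) and 24 h (purple) with 95% intervals; open circles did not pass an adjusted p of 0.05, and dashed lines are the medians of all genes tested (0.02 and 0.03). The filled points are Ebp (0.87) and Abca1 (-0.56) at 0 h and Acat2 (-0.72) and Abcg1 (1.03) at 24 h.

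Nsdhl was the nearest of the rest at 24 h. It was at 5.28, 4.78 and 3.72 FPKM in β8ITG-cKO, all below the 6.82 to 8.77 of WT, but did not pass (log2 difference -0.64, adjusted p = 0.0662, limma), although it did on rescaling (-0.68, adjusted p = 0.0487) and in the fit over 12 libraries (adjusted p = 0.0282). Nsdhl passed in 0 of 6 fits without a library. Nr1h2, the liver X receptor β, was at 16.47 to 24.04 FPKM over the 12 libraries, and Stard4, a carrier of sterol between membranes, at 2.26 to 4.59. Neither passed in any of the 5 tests as fitted on FPKM without rescaling.

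Genes next to the pathway were counted from lists of known function. Of 14 SREBP-1 targets of fatty acid synthesis, 2 rose and 2 fell in WT over time (14.3% each, against 20.9% and 8.81% of all genes), and 4 rose and 4 fell in β8ITG-cKO (28.6% each, against 35.4% and 10.7%). Acly, which supplies acetyl-CoA to both sterols and fatty acids, was at 15.29 to 17.90 FPKM in WT 0 h and 27.66 to 39.61 in WT 24 h, and rose (log2 change 0.96, adjusted p = 0.00544). It rose in β8ITG-cKO too, from values of 19.34 to 23.37 FPKM to values of 31.00 to 36.79 (log2 change 0.64, adjusted p = 0.00298). Scd2, a stearoyl-CoA desaturase, was the most abundant of them and fell in both, from 206 to 82.5 FPKM in WT (log2 change -1.35, adjusted p = 0.00425) and from 239 to 90.7 in β8ITG-cKO (-1.39, adjusted p = 0.000436). Fads1, a desaturase of polyunsaturated fatty acids, also fell in both (log2 change -0.52 and -0.67), although in WT this held in 1 of 6 fits without a library. In β8ITG-cKO Scd1 and Thrsp fell too while Acaca, Elovl5 and Me1 rose, although Acaca passed in 2 and Me1 in 1 of 6 fits without a library, and both lost their calls on rescaling (adjusted p = 0.542 and 0.231). In WT Mid1ip1 rose. Fasn, the fatty acid synthase, was at 12.13 to 21.25 FPKM in all libraries and did not pass in either genotype without rescaling. On rescaling Fasn fell in β8ITG-cKO (log2 change -0.30, adjusted p = 0.0189, limma), and Fads2 fell in WT (-0.71, adjusted p = 0.014).

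Thrsp, a regulator of fatty acid synthesis, stood apart at 0 h. It was at 3.23, 5.31 and 4.22 FPKM in WT and 19.24, 11.06 and 12.55 in β8ITG-cKO, with no overlap (log2 difference 1.52, SE 0.22, adjusted p = 0.0123). At 24 h it was at 2.12 to 3.39 FPKM in WT and 1.90 to 5.09 in β8ITG-cKO. The interaction was -1.48 (SE 0.40, adjusted p = 0.0383) and held in 3 of 12 fits without a library.

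Of 12 genes of SREBP processing and sterol handling 5 rose and 0 fell in WT (41.7% higher, against 20.9% of all genes). In β8ITG-cKO 5 rose and 1 fell (41.7% and 8.33%), near the 35.4% and 10.7% of all genes. Nceh1, which frees cholesterol from its esters, rose from 3.22 to 11.6 FPKM in WT (log2 change 1.58, adjusted p = 0.000698) and from 2.26 to 8.20 in β8ITG-cKO (1.49, adjusted p = 5.36e-05). Ch25h, which makes 25-hydroxycholesterol, a known brake on SREBP processing, was at 0.66 to 1.31 FPKM in WT 0 h and 2.68 to 10.54 in WT 24 h, and at 0.27 to 1.74 and 4.13 to 5.97 in β8ITG-cKO, and rose in both. Nceh1 and Ch25h are also known in macrophages, and leukocyte markers were higher at 24 h in both genotypes (8 and 9 of 10 genes), whose part was not tested. Erlin1 and Tmem97 rose in both as well, Tmem97 from 1.53 to 3.46 FPKM in WT and from 1.63 to 4.58 in β8ITG-cKO, but in WT Tmem97 passed in 1 of 6 fits without a library and lost its call on rescaling (adjusted p = 0.0564). Stard3, a carrier of sterol from late endosomes, rose in WT (2.36 to 4.52 FPKM, adjusted p = 0.0457), in 0 of 6 such fits, and Soat1, which makes cholesterol esters, rose in β8ITG-cKO (3.04 to 5.17 FPKM, adjusted p = 0.0141). Mbtps1, the protease that makes the first cut in SREBPs, was at 32.04 to 34.78 FPKM in WT 0 h and 27.54 to 31.00 in WT 24 h. It fell in β8ITG-cKO (log2 change -0.29, adjusted p = 0.0462), which held in 2 of 6 fits without a library, and the test of the difference between the genotypes did not pass (adjusted p = 0.696). On rescaling Mbtps1 fell in both WT (log2 change -0.44, adjusted p = 0.0194, limma) and β8ITG-cKO (-0.58, adjusted p = 0.00233).

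Of 10 genes that use isoprenoids 4 rose and 0 fell in WT (40.0% higher, against 20.9% of all genes). In β8ITG-cKO 4 rose and 1 fell (40.0% higher, near the 35.4% of all genes). Nus1, Fntb and Rabggta, of dolichol synthesis and protein prenylation, rose in both, but in WT Nus1 passed in 1 and Fntb in 2 of 6 fits without a library, and Nus1 lost its call on rescaling (adjusted p = 0.0833). Pdss2, of coenzyme Q synthesis, rose in WT (1.68 to 3.04 FPKM, adjusted p = 0.0403), which held in 1 of 6 such fits. Its partner Pdss1 rose in β8ITG-cKO (0.618 to 1.92 FPKM, adjusted p = 0.0136), where Fnta, a subunit of prenyl transferases, fell (14.4 to 9.91 FPKM, adjusted p = 0.0147). On rescaling, Erlin1, Soat1 and Fntb lost their calls in β8ITG-cKO (adjusted p = 0.0526, 0.106 and 0.135) and Stard3 and Pdss2 in WT (adjusted p = 0.121 and 0.116). Rescaling also added falls by limma, of Osbp and Fnta in WT (adjusted p = 0.0096 and 0.0215). In β8ITG-cKO it added falls of Osbp, Mbtps2, Npc2 and Erlin2 (adjusted p = 0.00476, 0.0311, 0.0365 and 0.0147). Between the genotypes at 0 h 4 of these 36 genes passed, all higher in β8ITG-cKO (against 4.18% of all genes higher). Beside Thrsp they were Elovl6 (3.26 against 5.49 FPKM, adjusted p = 0.0284), Erlin1 (1.93 against 3.40, adjusted p = 0.0425) and Pdss2 (1.68 against 3.45, adjusted p = 0.0499), and none of those 3 passed in any of the 6 fits without a library. At 24 h 0 of the 36 passed by limma (against 6.29% of all genes), with 6 at an unadjusted p under 0.05 (against 20.4%).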

How the data were processed

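RNA of lens capsules with attached LCs was measured in 12 libraries, 3 per group. Per the labels and the methods, the authors made stranded total RNA libraries (SMARTer Stranded Total RNA-Seq Pico kit), sequenced read pairs and counted them with Cuffdiff, and the submitters' processing notes name FastQC, cutadapt 1.12, TopHat2 2.1.0, Cuffdiff 2.2.1 and mm10 (GRCm38.p5). The authors deposited FPKM for each library and gene in 4 tables, 1 per pair of groups, and each library had the same values in the 2 tables that hold it. Their 8 columns of group values, and their fold changes, p-values and q-values, were not used. FPKM summed to 446531 to 740140 per library, with 36.0 to 49.6% in the 10 highest genes and 22108 to 24616 genes above 0. Read counts were not used here, so depth is unknown and no counting interval can be given. Relative depth, from the steps between low FPKM, was 0.89 to 1.17 for genes with a mean below 0.05 and 0.87 to 1.27 below 0.3.

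Each pair of groups was fitted with limma 3.58.1 (limma-trend) in R 4.3.3 on log2(FPKM + 1) after genes whose mean fell under 0.5 FPKM were left out, with Benjamini-Hochberg adjustment over all genes and a threshold of 0.05, and the interaction in 1 fit over 12 libraries. All fold changes of log2 are on this scale. Procedures were tested on simulated data. The 28 genes, the neighbouring lists and the markers were chosen with earlier results of these data known. Named genes are the 28, those of the neighbouring lists past the threshold, Itgb8, and others named after their values were seen. Alternatives were a pseudocount of 0.1, no filter, a mean of at least 2 FPKM, rescaling to the same median (over genes of at least 2 FPKM), 1 fit over 12 libraries, a replicate block, each library left out, and the study's criteria. Exon overlaps came from GENCODE and promoters from RefSeq. Values of certain genes are left out.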

Additional observations from a re-analysis of the deposited data

Results flagged for a closer look

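The change from 0 h to 24 h differed between the genotypes for 3 of the 28 genes by the interaction of genotype and time, β8ITG-cKO minus WT (limma, 12 libraries). That share, 10.7%, was near the 9.39% of all genes tested. The difference was -0.89 for Acat2 (adjusted p = 0.0173), -1.29 for Ebp (adjusted p = 0.0166) and 1.35 for Abcg1 (adjusted p = 0.0449). For Ebp and Acat2 the 0 h libraries of β8ITG-cKO were all above those of WT. For Acat2 the 24 h libraries of β8ITG-cKO were also all below those of WT. Abcg1 lost its call in 11 of 12 fits without a library, and photoreceptor markers were higher in the same β8ITG-cKO 24 h libraries.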

How the results depend on the processing

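No member past the threshold turned its direction under any alternative. In WT over time 16 members passed, 9 by the study's criteria on size and 9 to 18 without 1 library. In β8ITG-cKO over time 11 passed, 5 by those criteria and 9 to 12 without 1 library. Between the genotypes at 0 h 2 passed, 1 by the study's criteria, 0 with no filter and 0 to 2 without 1 library, and 0 was reached without WT 0 h replicate 1, β8ITG-cKO 0 h replicate 1 or replicate 3. At 24 h 2 passed, 3 on rescaling and in the fit over 12 libraries, 0 with a mean of at least 2 FPKM, 0 with no filter, 0 by the study's criteria and 0 to 2 without 1 library, and 0 was reached without WT 24 h replicate 2 or any 1 of the β8ITG-cKO 24 h libraries. The interaction gave 3, and 2 to 4 without 1 library. A replicate block gave 16 and 11 over time, 0 at 0 h, 0 at 24 h and 2 for the interaction. The deviations of 18 same-numbered pairs of libraries had correlations of -0.22 to 0.08. With 3 libraries per group these correlations cannot show whether same-numbered libraries had mice or handling in common. Why these counts moved was not tested. Depth is unknown, and the pseudocount limits what Abcg1 and other low genes can show.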
